A study of Mus musculus with 2 samples.

Results

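The genes described here are 10 feedback regulators of MAP kinase signalling: the dual-specificity phosphatase genes Dusp1, Dusp2, Dusp4, Dusp5, Dusp6 and Dusp10, the Sprouty genes Spry1 and Spry2, and the Spred genes Spred1 and Spred2. They were taken by name from a table of 27179 genes, and all 10 have a row in it. The table comes from ALL211, a primary leukemia of mouse T cells (T-cell acute lymphoblastic leukemia, T-ALL) with the transgenes Vav-tTA and TRE-GFP-shIkaros, in which the Vav promoter drives a transactivator in blood cells and the transactivator drives a hairpin against Ikaros linked to GFP. Both groups carry these transgenes and come from the same leukemia, grown in recipient mice and sorted from the spleen. The untreated group is 1 library of GFPhigh cells, and the Dox group is 1 library of GFPmid cells from mice given doxycycline for 3 days, which shuts off the hairpin and lets Ikaros return. The design text names 2 mice a condition, and the sources used here do not say whether their RNA was pooled, nor give the strain and age of the hosts.

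MAP kinases (ERK, JNK and p38) carry signals from surface receptors to the nucleus, and in T cells the antigen receptor, its precursor and cytokine receptors all feed into them. Dual-specificity phosphatases switch the kinases off again by removing phosphate from both the threonine and the tyrosine of the activation loop. Sprouty and Spred proteins act further up and restrain the step from receptors through Ras to Raf. Many of these genes are themselves induced by the kinases they restrain, which closes a negative feedback loop.

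The genes did not move as a block. Of the 10, 3 were higher by 2-fold or more with Dox (Dusp1, Dusp6 and Dusp10), 3 lower by 2-fold or more (Dusp4, Spry1 and Spry2) and 3 within 2-fold (Dusp2, Dusp5 and Spred2), while Spred1 stayed below 1 CPM (a gene's counts relative to the TMM-scaled library total) in both libraries and is not counted among the 9 measured genes. Of all 12125 genes that reached 1 CPM in either library, 13.6% were higher by that much and 13.0% lower. Since there is 1 library a group, the conditions could not be tested against each other and no p-value was computed. Intervals are 95% intervals that cover counting error only, treat reads as independent, and say nothing of differences between mice.

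The promoters of 9 of the 10 genes (RefSeq, GRCm38.p6; windows of 250 bases before to 50 after the gene's start) were searched for 5 motifs through which MAP kinase signals or Ikaros are known to reach genes. The stretches below lie before the start and read 5′ to 3′ on the gene's own strand, with motif matches in capitals. Dusp1 is shown for the cAMP response element (CRE), Dusp5 for the CArG box bound by serum response factor, Spry1 because it differed most between the libraries, and Spred2 and Dusp2 for the Ikaros core.
Dusp1 chr17:26508473-26508632 (- strand): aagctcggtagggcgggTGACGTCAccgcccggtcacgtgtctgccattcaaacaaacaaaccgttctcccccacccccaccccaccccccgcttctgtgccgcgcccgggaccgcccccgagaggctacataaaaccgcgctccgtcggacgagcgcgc
Dusp5 chr19:53528985-53529144 (+ strand): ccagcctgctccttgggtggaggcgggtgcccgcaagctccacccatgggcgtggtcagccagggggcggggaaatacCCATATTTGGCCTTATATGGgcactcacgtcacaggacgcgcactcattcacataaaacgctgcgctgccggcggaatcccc
Spry1 chr3:37639787-37639946 (+ strand): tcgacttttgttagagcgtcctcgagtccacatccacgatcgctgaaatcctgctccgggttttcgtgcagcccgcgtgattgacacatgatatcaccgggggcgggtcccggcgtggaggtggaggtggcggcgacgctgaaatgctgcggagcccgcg
Spred2 chr11:19924362-19924401 (+ strand): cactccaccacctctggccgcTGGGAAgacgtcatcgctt
Dusp2 chr2:127335929-127335968 (+ strand): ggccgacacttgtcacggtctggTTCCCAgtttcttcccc

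The CRE, TGACGTCA, a palindrome bound by CREB and ATF factors, was at positions -143 to -136 of Dusp1, counted back from the base before the start, and 1.79% of all 32851 windows hold it. Dusp5 had a pair of CArG boxes end to end, from -82 to -73 and from -72 to -63, and 1.63% of windows hold at least 1 such box. The Ikaros core, TGGGAA, matched on the gene's strand in Spred2 (-59 to -54) and on the opposite strand in Dusp2 (-207 to -202), and 25.6% of windows hold it. The AP-1 motif, TGANTCA, and the ETS motif, CCGGAAG, matched in 0 of the 9 windows, against 7.81% and 8.86% of all windows. Both strands were searched, and none of the matches overlapped another. A match describes letters and not a bound site.

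Among the nuclear phosphatases, Dusp4 differed most. Dusp4 (Entrez 319520; chromosome 8, 34807610 to 34819894), which acts on ERK and JNK, had 1609 counts (94.3 CPM) untreated and 514 counts (31.4 CPM) with Dox. It was 3.003-fold lower with Dox (interval 2.72 to 3.32; log2 fold -1.58), and 5.28% of tested genes had a lower log2 fold. Dusp1 (Entrez 19252; chromosome 17, 26505591 to 26508472), the gene with the CRE and an immediate early gene whose product acts on p38 and JNK and also on ERK, went the other way. It had 114 counts (6.68 CPM) untreated and 260 counts (15.9 CPM) with Dox, a ratio of 2.38 (interval 1.90 to 2.99; log2 fold 1.23). Of the tested genes, 9.76% had a higher log2 fold than Dusp1. An isoform of Dusp1 in GENCODE overlaps exons of Ergic1 on the opposite strand. Ergic1 had 1633 and 527 counts, the opposite direction, and the sources used here do not give the strand setting of the counting.

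Dusp2 and Dusp5, which also sit in the nucleus and act mainly on ERK, were within 2-fold. Dusp2 (Entrez 13537), known from activated lymphocytes, had 1225 counts (71.8 CPM) untreated and 1471 counts (89.8 CPM) with Dox, a ratio of 1.25 (interval 1.16 to 1.35). Dusp5 (Entrez 240672), the gene with the CArG boxes, which encodes a phosphatase selective for ERK, had 316 counts (18.5 CPM) and 425 counts (25.9 CPM), a ratio of 1.40 (interval 1.21 to 1.63). Both intervals lie above 1 and below 2. Their log2 folds were 0.32 and 0.48, and 33.7% and 27.1% of the tested genes had a higher value. The Dusp5 row has a length of 1155 bases, the shortest of the 10, and GENCODE places an antisense transcript, not listed in the table under that name, over its exons.

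Dusp6 and Dusp10 stood almost exactly at the 2-fold line. Dusp6 (Entrez 67603; chromosome 10, 99263231 to 99267489), the cytoplasmic phosphatase selective for ERK and a common readout of ERK activity, had 117 counts (6.85 CPM) untreated and 229 counts (14.0 CPM) with Dox. Its ratio was 2.04 (interval 1.63 to 2.57; log2 fold 1.02). Dusp10 (Entrez 63953; chromosome 1, 184034381 to 184075636), which prefers JNK and p38, had 1358 counts (79.6 CPM) and 2609 counts (159 CPM). Its ratio was 2.003 (interval 1.87 to 2.14; log2 fold 1.001). With total-count or DESeq2 median-of-ratios scaling both genes lay just under 2-fold, which left Dusp1 as the 1 gene of the 10 past that line in the higher direction. The lowest values they took under any scaling or prior count were log2 folds of 0.99 for Dusp6 and 0.98 for Dusp10, so the size of the difference hardly changed.

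The Sprouty genes were scarce in both libraries and nearly absent with Dox. Spry1 (Entrez 24063; chromosome 3, 37639947 to 37644599), an inhibitor of receptor signalling to Ras that T cells can induce, had 85 counts (4.98 CPM) untreated and 8 counts (0.488 CPM) with Dox. It was 10.2-fold lower (interval 4.95 to 24.4; log2 fold -3.07), and 0.932% of tested genes had a lower log2 fold. GENCODE also places a transcript of the opposite strand, with no counts listed under its name, over exons of Spry1. Spry2 (Entrez 24064; chromosome 14, 105891947 to 105896819), its close relative, had 21 counts (1.23 CPM) and 4 counts (0.244 CPM). Its ratio gives a 5.04-fold lower level, with a wide interval of 1.70 to 20.2. Spry2 and Spry1 passed the filter of 1 CPM through the untreated library alone, which favours lower values with Dox.

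The Spred genes, whose products bring neurofibromin to Ras at the membrane, stood far apart in level. Spred2 (Entrez 114716) had 528 counts (30.9 CPM) untreated and 428 counts (26.1 CPM) with Dox, a ratio of 0.845 (interval 0.742 to 0.962). Spred1 (Entrez 114715) had 0 counts untreated, where a floor of 3 counts allows up to 0.176 CPM, and 5 counts (0.305 CPM) with Dox. Against that floor it was at least 1.74-fold higher, but the interval of its ratio starts at 0.955, so no direction can be read at this depth. The median log2 fold was 0.32 over the 9 measured genes and 0.40 over all 10 with Spred1 at its bound, beside -0.01 over all tested genes.

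**Figure D1:**
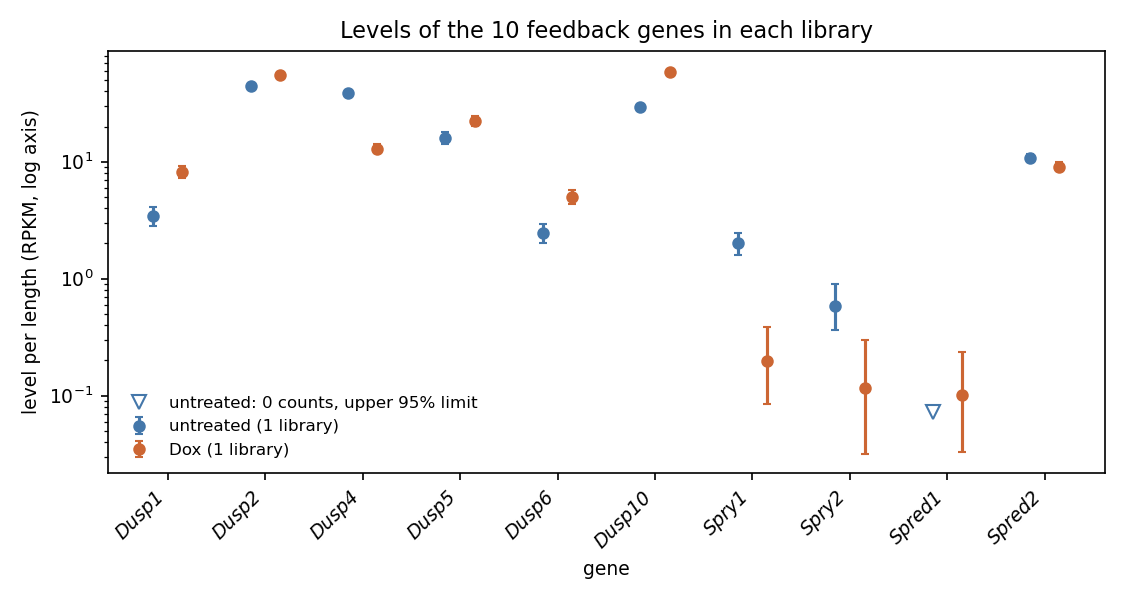
Level per length (RPKM, log axis) of each of the 10 genes in the untreated and the Dox library, 1 library each, with bars for the exact Poisson 95% interval of the count. The open triangle is the upper limit for Spred1, which had 0 counts untreated. Dusp4, Spry1 and Spry2 lie lower with Dox, and Dusp1, Dusp6 and Dusp10 higher.

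Judged by the whole counting interval, only Dusp4 and Spry1 of the 10 lay wholly beyond 2-fold, both lower, and 0 genes did so in the higher direction. Over all tested genes the same rule held for 8.38% in the lower and 9.11% in the higher direction. The interval of Spry2 reaches above a 2-fold reduction, and those of Dusp1, Dusp6 and Dusp10 reach below 2-fold.

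**Figure D2:**
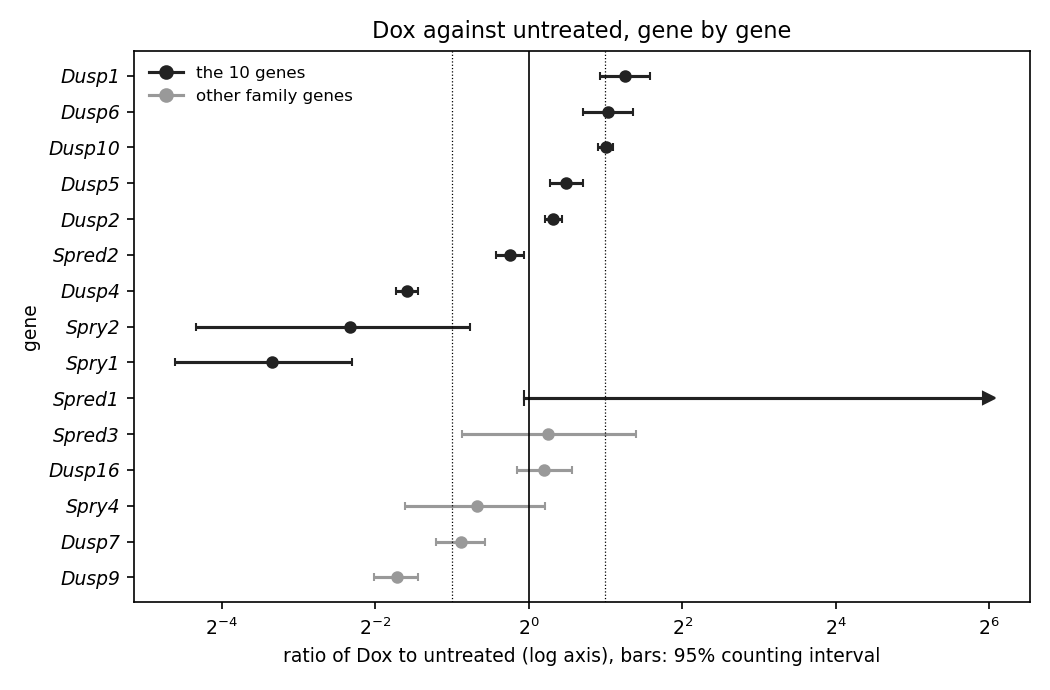
Ratio of Dox to untreated (log axis) for the 10 genes in black and for other genes of the same families with counts in grey, with 95% counting intervals; dotted lines mark 2-fold and the arrow an interval with no upper end. The bars of Dusp4 and Spry1 lie wholly below the lower dotted line.

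Compared per length, as RPKM (CPM divided by the gene length in kilobases that the deposited table gives), the order of the genes changed at the top. In the untreated library Dusp2 led with 44.4 RPKM, followed by Dusp4 with 38.8, Dusp10 with 29.3, Dusp5 with 16.0 and Spred2 with 10.8, with no overlap between the intervals of neighbours. Dusp1 (3.44), Dusp6 (2.45) and Spry1 (interval 1.60 to 2.47) followed, where the interval of Dusp6 overlapped those of both neighbours but those of Dusp1 and Spry1 did not overlap, and Spry2 had 0.589 RPKM. In the Dox library Dusp10 (58.7 RPKM) and Dusp2 (55.5) led with overlapping intervals, ahead of Dusp5 (22.5) and Dusp4 (12.9). Thus Dusp4 ranked 2 of the 10 untreated and 4 with Dox, and Dusp10 ranked 3 and 1. Spred2 (9.10) and Dusp1 (8.17) could not be told apart by counting error in the Dox library, Dusp6 had 4.999, and Spry1 (0.196), Spry2 (0.117) and Spred1 (0.102) were at the bottom with overlapping intervals.

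The make-up of the summed Dusp counts differed more than their total. The 6 Dusp genes summed to 278 CPM untreated and 336 CPM with Dox (ratio 1.21, interval 1.17 to 1.26). Within that sum Dusp4 held 34.0% of counts untreated (Wilson interval 32.6 to 35.3) and 9.33% with Dox (8.59 to 10.1). Dusp10 held 28.7% (27.4 to 30.0) and 47.4% (46.1 to 48.7). Dusp2 kept nearly the same share, 25.8% (24.6 to 27.1) and 26.7% (25.6 to 27.9), with overlapping intervals. Counts weight each gene by its length, so these are not shares of transcripts. Of the summed RPKM, Dusp4 held 28.9% untreated and 7.94% with Dox, Dusp10 21.8% and 36.1%, and Dusp2 33.0% and 34.1%. The shares of Dusp1 in the counts were 2.41% and 4.72%, and those of Dusp6 2.47% and 4.16%, so both stayed minor parts of the sum. The 4 Sprouty and Spred genes summed to 37.1 CPM untreated and 27.2 CPM with Dox (ratio 0.732, interval 0.647 to 0.827). Spred2 made up 83.3% of these counts untreated (80.2 to 86.0) and 96.2% with Dox (94.0 to 97.6), since both Sprouty genes were lower.

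**Figure D3:**
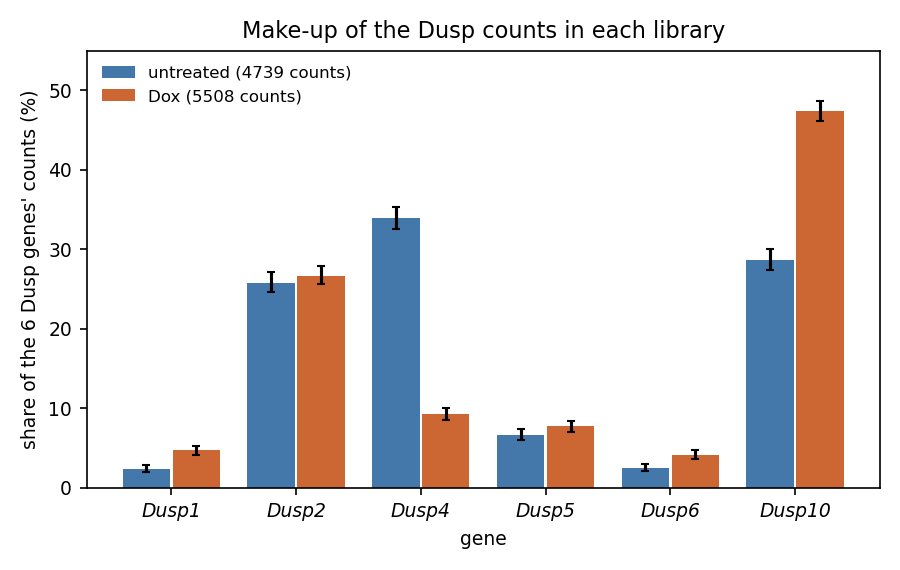
Share of the summed counts of the 6 Dusp genes held by each gene (%), in the untreated library (4739 counts) and the Dox library (5508 counts), with Wilson 95% intervals. Dusp4 holds 34.0% untreated and 9.33% with Dox, and Dusp10 28.7% and 47.4%.

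The relatives outside the 10 genes did not share 1 direction with them either. Of 4 further MAP kinase phosphatase genes, 3 were measured. Dusp9, a cytoplasmic phosphatase of ERK and p38, had 447 and 130 counts and was 3.30-fold lower with Dox (interval 2.71 to 4.04). Dusp7, a cytoplasmic ERK phosphatase and close relative of Dusp6, had 242 and 126 counts (log2 fold -0.87), and Dusp16, which acts on JNK and p38, 126 and 139 (0.20). Thus among the cytoplasmic phosphatases of ERK, Dusp6 was higher with Dox, while Dusp7 and Dusp9 were lower, Dusp7 by less than 2-fold. Dusp8 had 0 counts in both libraries. Of 3 further Sprouty and Spred genes, Spry4 was measured, with 30 and 18 counts (ratio 0.625, interval 0.328 to 1.16), Spred3 had 14 and 16 counts, and Spry3 had 0. Of 15 atypical phosphatase genes, which lack the MAP kinase binding domain, 8 were measured (median log2 fold 0.08). Of these, 0 were higher and 2 lower by 2-fold or more, beside 13.6% and 13.0% of all tested genes. The 2 lower genes were Dusp12 (-1.39) and Dusp22 (-1.06), and the highest values were Dusp28 (0.66) and Dusp18 (0.64).

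The kinases on which the 10 genes act differed little. Of 25 genes of the cascade from Ras to ERK, 24 were measured. Of these, 1 was higher and 0 lower by 2-fold or more, beside 13.6% and 13.0% of all tested genes. The median log2 fold was 0.33, and the lowest values were Hras with -0.60 and Ksr1 with -0.29. The 1 higher gene was Rasgrp2, an exchange factor that loads Rap and Ras proteins, with 2134 and 7146 counts (ratio 3.49, interval 3.33 to 3.66). The next was the ERK-activated kinase gene Rps6ka1 with a log2 fold of 0.94. Of 20 genes of the p38 and JNK cascades, 18 were measured. Of these, 1 was higher and 0 lower by 2-fold or more (median 0.21), beside the same shares of all tested genes. Map3k2 (1.06) and Map3k1 (0.96), kinases at the top of these cascades, had the highest values and Map2k3 (-0.20) and Map3k4 (-0.14) the lowest.

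Of 14 other genes that restrain Ras or Raf, all measured, 2 were higher and 2 lower by 2-fold or more (median 0.39), beside 13.6% and 13.0% of all tested genes. Rasa3, a GTPase activating protein, had 1901 and 8242 counts (ratio 4.52, interval 4.30 to 4.75), and the ubiquitin ligase gene Cblb had a log2 fold of 1.05. The 2 lower genes were Pebp1 (-1.12), which encodes a Raf kinase inhibitor, and Nf1 (-1.04), which encodes neurofibromin, the partner of the Spred proteins. Nf1 had 263 and 122 counts.

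Genes known to respond to ERK lay in both directions. Of 16, 13 were measured, of which 3 were higher and 3 lower by 2-fold or more (median 0.08), where all tested genes gave 13.6% and 13.0%. The immediate early genes Fos (120 and 1560 counts, log2 fold 3.74) and Fosb (1.79) were highest, and the receptor gene Epha2 (315 and 32 counts, -3.16) and the cyclin gene Ccnd1 (2178 and 421 counts, -2.31) lowest. By sign alone, Dusp1 and Dusp6 were higher like Fos and Fosb, and Dusp4 and both Sprouty genes lower like Epha2 and Ccnd1. With 1 difference per gene, a shared sign shows no likeness of pattern. All 3 ERK-responsive genes higher by 2-fold or more, Fos and Fosb among them, also belong to the list of tissue dissociation genes given below.

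**Figure D4:**
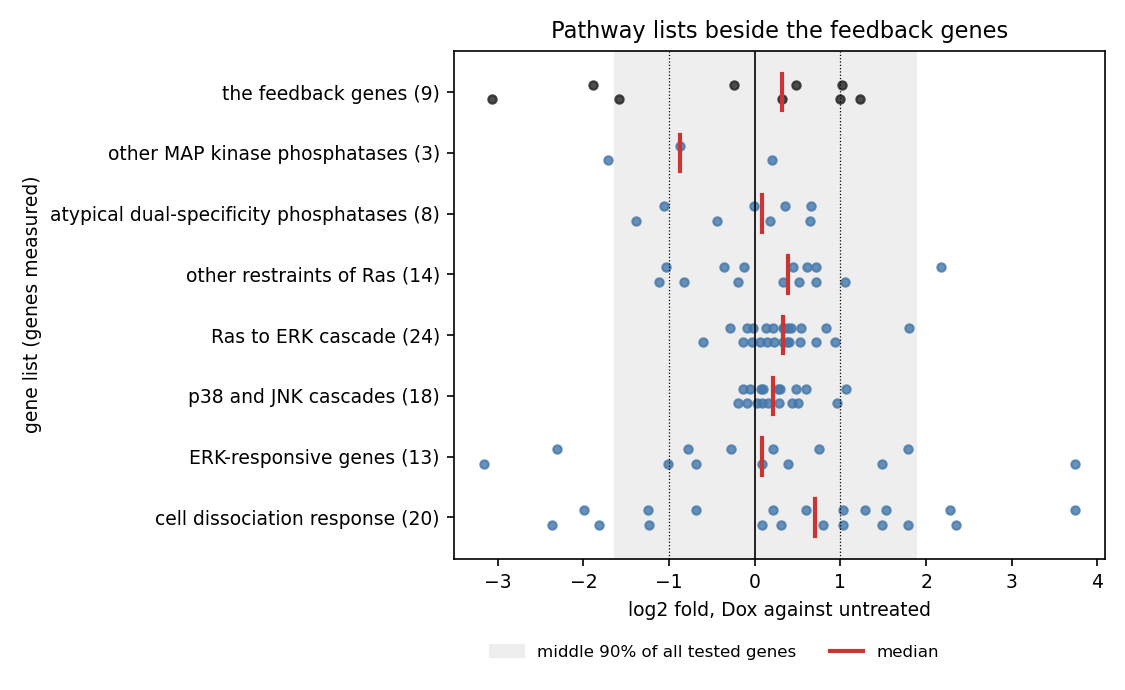
Log2 fold (Dox against untreated) of each measured gene of the feedback set and of 7 pathway lists, with the median as a red line; the grey band is the middle 90% of all tested genes and dotted lines mark 2-fold. The cascade lists lie mostly within 2-fold, and the feedback genes spread from -3.07 to 1.23.

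Other measures differed between the same libraries. They held 16960042 and 16484613 counts, and Ikzf1, the gene of the targeted protein, was 10.2-fold higher with Dox. All 10 T-cell markers were present, with a summed level of 6189 CPM untreated and 7661 CPM with Dox. Of 16 macrophage markers, 15 were higher with Dox, with sums of 72.3 and 343 CPM. Itgam (60.6 and 181 CPM) made up most of the untreated sum, and Itgam and Mpeg1 (1.64 and 96.8 CPM) most of the Dox sum. Marco was at 0 in both. Of 8 dendritic cell markers all 8 were higher with Dox (0.410 and 38.6 CPM, led by Itgax and Xcr1). Of these, 6 were at 0 untreated, among them Clec9a and Siglech. Erythroid markers summed to 10.9 and 78.4 CPM (8 of 8 higher, led by Hba-a2 and Hbb-bs), B-cell markers to 0.469 and 4.70 CPM (6 of 9 higher, led by Jchain and Cd79a; Ebf1 and Pax5 were at 0 in both) and natural killer markers to 0.293 and 5.01 CPM (5 of 5, led by Prf1 and Klrk1). Neutrophil markers summed to 5.51 and 9.53 CPM (4 of 7 higher, led by S100a9 and S100a8) and platelet markers to 0.117 and 0.427 CPM (3 of 4 higher, led by Itga2b and Pf4). Stromal and endothelial markers summed to 87.5 and 40.4 CPM, led by Col1a2 and Col1a1. That sum was lower with Dox mostly through Col1a2 (76.4 and 32.8 CPM). Of these 5 markers 3 were higher by sign. Col1a1 had 6.33 and 6.96 CPM, while Cdh5 and Kdr were at 0 untreated and below 1 CPM with Dox. Of the 3 markers that reached 1 CPM, 0 were higher and 2 lower by 2-fold or more, beside 13.6% and 13.0% of all tested genes. Of 22 genes known to respond to tissue dissociation, a list that includes immediate early and heat shock genes, 20 were measured. Of these, 9 were higher and 5 lower by 2-fold or more (median 0.70), beside 13.6% and 13.0% of all tested genes. The list ran from Zfp36 (2.35) and Fos at the top to Hspe1 (-1.997) and Hsp90aa1 (-2.36). Dusp1 is itself known to respond to tissue dissociation. The part of these cells and of cell handling in the values of Dusp1, Dusp6 and Dusp10, which were higher in the same library, was not tested. Nor was it tested for Spred1, whose direction could not be read. Stromal and endothelial markers went both ways by sign, but the measured ones past 2-fold were lower. The part of such cells in the values of Dusp4, Spry1 and Spry2, which were lower in the same library, was not tested either. In sorted bulk samples such as these, fewer cells of a type and less RNA per cell cannot be told apart, and treatment, sorting gate and mice cannot be told apart either.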

How the data were processed

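RNA from sorted cells was sequenced in 1 untreated and 1 Dox library. The authors deposited raw read counts, listed by Entrez gene identifier beside gene lengths. The submitters' processing notes name featureCounts, CASAVA 1.8.2 and mm10; aligner, annotation and strand setting are not stated in the sources used here. The counts of the whole table and of the separate sample tables differed for 0 genes, and 0 columns were left unassigned. RefSeq (GRCm38.p6) gave symbols to 25275 of 27179 genes.

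Counts were scaled by TMM factors (1.007 and 0.994; edgeR 4.0.16, R 4.3.3). For log2 folds a prior count of 2 was added before the logarithm of CPM, for ratios none. Genes reaching 1 CPM in either library were tested. Ratios have exact Clopper-Pearson 95% intervals from the conditional binomial distribution, levels exact Poisson and shares Wilson intervals. PCR copies are not independent molecules, so the intervals cover counting error only. Depth (16960042 and 16484613 counts) limits the precision: the floor of 3 counts is 0.176 CPM untreated and 0.183 CPM with Dox.

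The genes and lists were chosen with earlier results of these data known. All 10 genes are named, with Ikzf1 and, of each pathway list, the 2 highest and 2 lowest log2 folds among measured genes; of marker lists the sums, the 2 most abundant genes and genes at 0. A gene that this rule names is not reported here. Dusp8, Spry3 and Spred3 and the genes overlapping Dusp1, Dusp5 and Spry1 were named after their values were seen. Alternatives were other scalings (total-count, upper quartile, DESeq2 1.42.0), prior counts of 0.5 and 5, filters, folds and thinning. Steps were tested on simulated data. Python 3.11.15, numpy 2.4.6, pandas 2.3.3, scipy 1.17.1 and matplotlib 3.10.9 were used.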

Additional observations from a re-analysis of the deposited data

How the results depend on the processing

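The number of genes at least 2-fold higher with Dox, 3 as reported, was 1 with total-count scaling, 1 with DESeq2 median-of-ratios scaling, 1 with a prior count of 5 and 1 with the deeper library thinned, because Dusp6 and Dusp10 lie on the 2-fold line. It was 0 at a threshold of 4-fold and 0 where the whole counting interval had to pass 2-fold. With a filter of at least 1 count it was 4, since Spred1 enters with a fitted value that is no bound. The number at least 2-fold lower, also 3, was 1 with a filter of at least 5 CPM, which drops Spry1 and Spry2, and 1 (Spry1) at a threshold of 4-fold. The median log2 fold of the measured genes ranged from 0.30 to 0.48. The log2 folds of the 9 measured genes kept their direction and stayed within their own counting intervals under all 6 scalings, prior counts and thinning tried, with ranges of -3.27 to -2.74 for Spry1, -2.20 to -1.49 for Spry2 and -1.60 to -1.56 for Dusp4. The median log2 fold of all tested genes moved from -0.01 to -0.03 at the lowest and 0.02 at the highest scaling. No paired analysis was possible because each group has 1 library. With 85 and 8 counts for Spry1, 21 and 4 for Spry2 and 0 and 5 for Spred1, depth limits how closely these 3 can be measured.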
